A study of Mus musculus with 16 samples.

Results

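Most of the genes described here encode enzymes and proteins that remove superoxide and hydrogen peroxide or keep protein thiols reduced. The set has 10 members, chosen by gene name: Sod1, Sod2, Sod3, Prdx1, Gpx1, Gpx3, Gpx4, Txn1, Nqo1 and Hmox1. The platform annotation named 10 probes for 8 of them, out of 20355 probes on the array and 9846 named genes measured. Sod1 and Sod2 had 2 probes each, and Sod3, Prdx1, Gpx1, Gpx4, Txn1 and Hmox1 had 1 each. No probe carried the name of Gpx3 or Nqo1, so these genes are not analysed here.

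The samples were kidneys of 4 male mice labelled MFP2-/-, aged 15 weeks. MFP2 is peroxisomal multifunctional protein 2, the product of Hsd17b4 and an enzyme of peroxisomal fatty acid oxidation. Each mouse was hybridised on 4 two-channel cDNA arrays with a single pool made from 5 wild-type males of the Swiss strain SWR/Ola Hsd, also aged 15 weeks, as its partner, with the mutant in Cy5 on 2 arrays and in Cy3 on the other 2. The labels do not state the strain background of the mutants, how the allele was made or which cells carry it. The pool is 1 control sample, so variation among wild-type mice is unknown. Intervals and p-values against the pool hold only the spread among the mutant mice.

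Superoxide dismutases turn superoxide into hydrogen peroxide, SOD1 mainly in the cytosol, SOD2 in the mitochondrial matrix and SOD3 outside the cell. Glutathione peroxidases, peroxiredoxins and catalase then remove the peroxide, and thioredoxin hands electrons to the peroxiredoxins. Peroxisomal beta-oxidation is itself a source of hydrogen peroxide, and the proximal tubule of the kidney is rich in both peroxisomes and mitochondria.

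Values are log2 ratios, read as MFP2-/- over pool, so 0 means equal signal and a positive value a higher signal in the mutant. Each array was centred on its median, and the arrays of a mouse were averaged to 1 value with equal weight for both dye orientations, so n is 4 mice. The direction and the log base are inferred, not stated; one basis is that channel 1 holds the mutant on every array in the labels. Probe 4590 of Hsd17b4, the targeted gene, measured -1.69, -1.50, -0.10 and -0.34 across mice 1 to 4. It was thus far below the pool in mice 1 and 2 and close to it in mouse 3. In mouse 4 its arrays ran from -1.15 to 0.47. The SD between same-dye arrays of one mouse was 0.50 for this probe. The other Hsd17b4 probe, 1446, measured 0.02, 0.83, 0.34 and 0.52, and was at or above the pool in every mouse. The gene averaged -0.24 ± 0.45 (SD, n = 4), and limma gave an adjusted p of 0.655. Which exons the probes cover is unknown here, so these values do not settle the labels, and every direction below is for the libraries labelled MFP2-/-. If the deposited ratios instead ran Cy5 over Cy3 on every array, the mean of Sod2 would be 0.02, that of Gpx4 -0.04 and that of Prdx1 -0.02. That reading reverses the sign of the arrays with the mutant in Cy3, so values alike in both orientations cancel to near 0. Probe 4590 averaged -0.89 with the mutant labelled Cy5 and -0.92 in the swap. A mutant difference would change sign between the orientations in a ratio of Cy5 over Cy3. The arrays carried 19737 to 20228 values each. A ratio holds no level, so neither the abundance of a transcript nor the tissue label could be checked, and fewer cells of a type cannot be told apart from less RNA per cell.

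Of the 8 genes measured, 6 had a mean above 0 and 2 a mean below 0, where 50.1% of all rows had a mean above 0, and none passed the test against the pool. Sod2, Gpx4 and Txn1 had the largest means, Sod1, Prdx1 and Gpx1 smaller ones, and Sod3 and Hmox1 lay slightly below 0. The median of the 8 means was 0.15, beside 0.00 over all 16140 rows tested, and it was 0.05 without mouse 2. By limma with Benjamini-Hochberg adjustment over all rows at 0.05, 0 of 8 members were called, where 0% of all rows were called. At an unadjusted p under 0.05, 3 of 8 members (Sod2, Gpx4 and Txn1) were higher and 0 were lower, where 5.83% of all rows were higher and 3.21% lower, 9.04% together. With the plain median of a mouse's arrays, without equal weight for the dyes, Txn1 missed that limit (p = 0.0546 in limma) and Hmox1 was lower (p = 0.0147). Txn1 also missed it without mouse 2, 3 or 4 (limma p of 0.112, 0.117 and 0.09), and Gpx4 without mouse 4 (0.0715). An exact sign-flip test over 4 mice cannot go below p = 0.125, so it can call no gene at 0.05.

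**Figure D1:**
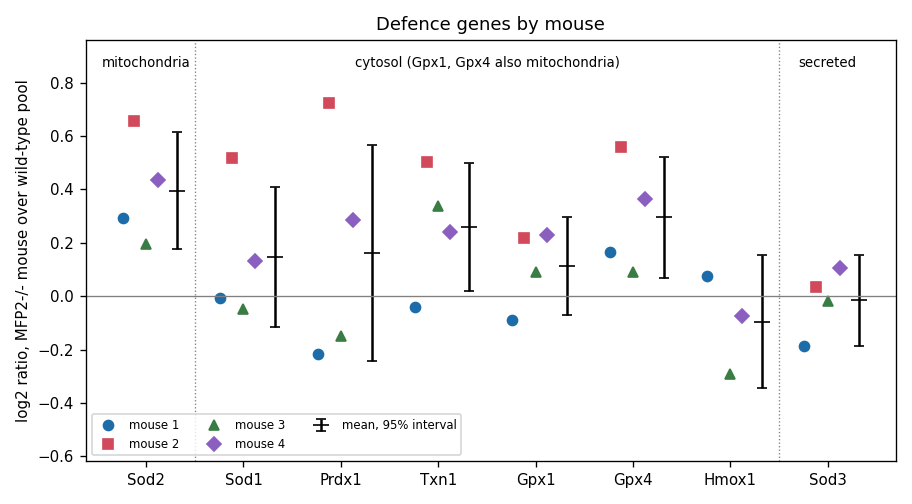
Log2 ratio of each measured gene (y axis) in each of the 4 MFP2-/- mice (coloured symbols) over the wild-type pool, with the mean and limma's 95% interval in black, grouped by compartment along the x axis. All 4 mice lie above 0 for Sod2 and Gpx4, and mouse 2 is highest for Sod2, Sod1, Prdx1, Txn1 and Gpx4.

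Sod2, the manganese enzyme of the mitochondrial matrix, was the member farthest from the pool. It measured 0.29, 0.66, 0.19 and 0.44 (log2 ratio) across mice 1 to 4. All 4 mice were above 0, the lowest being mouse 3 and the highest mouse 2. Sod2 and Gpx4 were the 2 of 7 members positive in every mouse and no member was negative in every mouse, where 10% and 9.42% of all rows were. The mean was 0.40 ± 0.20 (SD, n = 4), a fold of 1.31 with a 95% interval of 1.13 to 1.53, but limma's adjusted p was 0.548 (unadjusted 0.00457).

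Both Sod2 probes lay above 0 in every mouse. Probe 6281 had 0.21, 0.69, 0.06 and 0.30 in mice 1 to 4, and was positive on 12 of 16 arrays. Probe 15108 had 0.38, 0.62, 0.32 and 0.57, and was positive on 14 of 16 arrays. The repeat SD, which compares same-dye arrays of one mouse, was 0.21 for probe 6281 and 0.43 for probe 15108, beside a median of 0.26 over 20187 probes, so the probe with the higher ratio was also the less repeatable one. By orientation, probe 6281 averaged 0.43 with the mutant labelled Cy5 and 0.20 in the swap, and probe 15108 0.39 and 0.55. These shifts ran opposite ways, and Sod2, as the mean of both probes, averaged 0.41 and 0.38. Without mouse 2 its mean was 0.31, with an unadjusted limma p of 0.00876 and an adjusted p of 0.767. When all 16 arrays were fitted with the mouse as a random block, Sod2 was the 1 member called, with an adjusted p of 0.0128 in limma. That fit called 221 rows and treats the arrays of a mouse as nearly separate samples, its estimated correlation within mice being 0.0355.

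Sod1, the copper and zinc enzyme of the cytosol, measured -0.01, 0.52, -0.05 and 0.13 (log2 ratio) across mice 1 to 4. Mouse 2 stood above the other mice, which lay near 0 or slightly above it. The arrays of mouse 1 ran from -0.45 to 0.48. The mean was 0.15 ± 0.26 (SD, n = 4) and limma gave an adjusted p of 0.660. Without mouse 2 the mean was 0.02. The 2 probes gave similar means, 0.16 for probe 544 and 0.14 for probe 7877. The orientations differed more than the probes: Sod1 averaged 0.28 with the mutant labelled Cy5 and 0.02 in the swap.

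Sod3, the secreted dismutase of the extracellular matrix and vessel wall, had -0.19, 0.03, -0.02 and 0.11 in mice 1 to 4. The mice fell on both sides of 0, mouse 1 being lowest. The mean was -0.02 ± 0.13 (SD, n = 4), with a 95% interval of -0.19 to 0.15 and a limma adjusted p of 0.944. Its probe was among the most repeatable, with a repeat SD of 0.14, but its orientations had opposite signs, 0.11 with the mutant labelled Cy5 and -0.14 in the swap.

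By compartment, the 6 measured members assigned to the cytosol ranged from -0.10 to 0.29, with a median of 0.15 and mouse medians of -0.02, 0.52, 0.02 and 0.23. They include Gpx1 and Gpx4, also found in mitochondria, and Hmox1, of the endoplasmic reticulum membrane facing the cytosol. Hmox1 was the lowest of them and Gpx4 the highest. Sod2 was the 1 strictly mitochondrial member and Sod3 the 1 secreted member measured. The order of the dismutase means was Sod2, Sod1, Sod3. The 95% intervals were 0.18 to 0.61 for Sod2, -0.11 to 0.41 for Sod1 and -0.19 to 0.15 for Sod3. Intervals of neighbours in that order overlapped, but they ignore that the genes were measured in the same mice. Sod2 was above Sod1 in each of the 4 mice: 0.29, 0.66, 0.19 and 0.44 against -0.01, 0.52, -0.05 and 0.13. Sod1 was above Sod3 in every mouse except mouse 3. With 1 member each outside the cytosol, a difference between compartments was not tested.

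Among the peroxide-removing enzymes, Gpx4 had the largest mean. GPX4 is the selenoenzyme that reduces lipid hydroperoxides in membranes, made in cytosolic and mitochondrial forms. It measured 0.17, 0.56, 0.09 and 0.36 across mice 1 to 4. All 4 mice were above 0, in the same order as for Sod2, with mouse 3 lowest and mouse 2 highest. The mean was 0.29 ± 0.21 (SD, n = 4), a fold of 1.23 with a 95% interval of 1.05 to 1.44, and limma's adjusted p was 0.548. Its probe was positive on 14 of 16 arrays, and averaged 0.25 with the mutant labelled Cy5 and 0.34 in the swap. Without mouse 2 the mean was 0.21.

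Gpx1, the abundant selenoenzyme of cytosol and mitochondria that reduces hydrogen peroxide, had -0.09, 0.22, 0.09 and 0.23 in mice 1 to 4. Mouse 1 lay below 0, with arrays from -0.635 to 0.429, and the other mice above it. The mean was 0.11 ± 0.15 (SD, n = 4), and limma gave an adjusted p of 0.640. It averaged 0.24 with the mutant labelled Cy5 and -0.01 in the swap.

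Txn1 encodes thioredoxin, the small cytosolic protein that reduces peroxiredoxins and other disulphides. It measured -0.04, 0.50, 0.34 and 0.24 across mice 1 to 4. The value of mouse 1 was near 0, but its arrays ran from -0.485 to 0.568. The other mice lay above 0. The mean was 0.26 ± 0.23 (SD, n = 4), a fold of 1.20 with a 95% interval of 1.01 to 1.41, and limma's adjusted p was 0.548. Without mouse 2 the mean was 0.18, and without mouse 1 it was 0.36. Txn1 averaged 0.35 with the mutant labelled Cy5 and 0.17 in the swap.

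Hmox1, the inducible heme oxygenase of the endoplasmic reticulum membrane, was measured poorly. Its probe had values on 13 of 16 arrays, and mouse 2 had none with the mutant in Cy5, so the fit used 3 mice. Mice 1, 3 and 4 measured 0.08, -0.29 and -0.07. They averaged -0.10 ± 0.19 (SD, n = 3), and limma gave an adjusted p of 0.752. The mean of mouse 1 combined -0.80 and -0.86 with the mutant in Cy5 and 0.98 on the 1 array with it in Cy3. Over all mice with a value, the orientations averaged -0.46 with the mutant labelled Cy5 and 0.45 in the swap. Mouse 2 entered only the swap mean, with 1.59 and 0.36, so these means cover different mice. The orientation means had opposite signs, though mouse 3 was below 0 on all 4 arrays. With the median of a mouse's arrays the Hmox1 mean was -0.45, with an unadjusted limma p of 0.0147 and an adjusted p of 0.494. That median does not weight the dyes equally: in mouse 1 it was -0.80, a value with the mutant in Cy5.

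**Figure D2:**
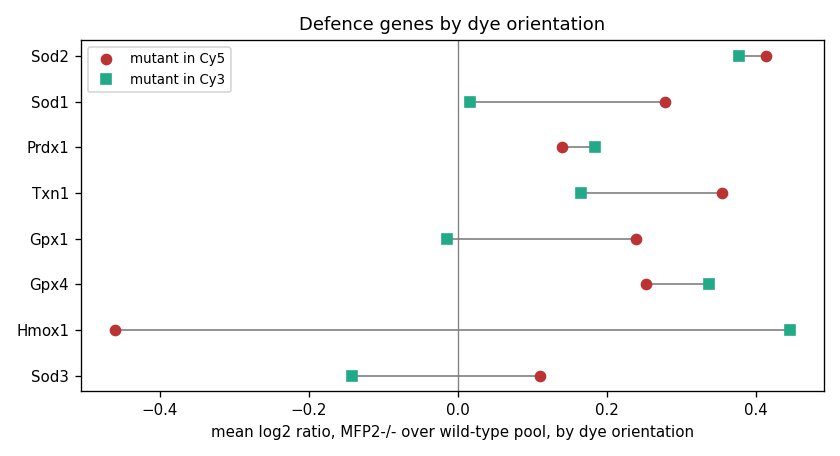
Mean log2 ratio of each measured gene over the mice with a value, with the mutant in Cy5 (circles) and in Cy3 (squares). Sod2, Prdx1 and Gpx4 gave similar values in both orientations, whereas Sod3, Gpx1 and Hmox1 had means of opposite sign. The Sod2 values are means of 2 probes whose orientations differed in opposite ways. For Hmox1, mouse 2 enters only the mean with the mutant in Cy3.

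In limma's test of dye orientation over all 16 arrays, with the mouse as a factor, 0 of 7 members were called, where 8.4% of 15856 rows were. Hmox1 was not in that fit, which needed both orientations in all 4 mice. Sod1 and Sod3 had an unadjusted p of 0.0295 and 0.0412 for the dye, where 29.9% of rows had an unadjusted p under 0.05. Without centring of the arrays both were called for dye in limma, with adjusted p of 0.0424 for Sod1 and 0.0471 for Sod3.

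The 4 mice labelled MFP2-/- were then compared with one another, asking whether they differed by more than arrays of 1 mouse did. Prdx1 was the 1 member called. PRDX1 is the abundant cytosolic peroxiredoxin, which reduces hydrogen peroxide with electrons from thioredoxin. On its arrays the log2 ratio ran from -0.33 to -0.07 (mouse 1), 0.48 to 0.93 (mouse 2), -0.40 to -0.03 (mouse 3) and 0.16 to 0.40 (mouse 4). Every array of mice 2 and 4 was above every array of mice 1 and 3, and the arrays of mouse 2 did not overlap those of mouse 4.

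The Prdx1 values per mouse were -0.21, 0.73, -0.15 and 0.29. They averaged 0.16 ± 0.44 (SD, n = 4), and limma gave an adjusted p of 0.750 against the pool. Without mouse 2 their mean was -0.03. In limma's F-test between mice, Prdx1 had an adjusted p of 0.0190 after Benjamini-Hochberg adjustment, and ranked 13 of the 30 rows called. That is 1 of 7 members, where 0.189% of 15856 rows were called. The spread in this test is that between arrays, so it says that these mice differed on these arrays. Both orientations gave similar means, as Prdx1 averaged 0.14 with the mutant labelled Cy5 and 0.18 in the swap. The call was lost when any mouse was left out, with adjusted p of 0.186 without mouse 1, 0.383 without mouse 2, 0.0738 without mouse 3 and 0.0626 without mouse 4. It was also lost, with an adjusted p of 0.994, when the values were read as Cy5 over Cy3. That reading makes values alike in both orientations cancel within a mouse, so this loss follows from the reading itself.

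**Figure D3:**
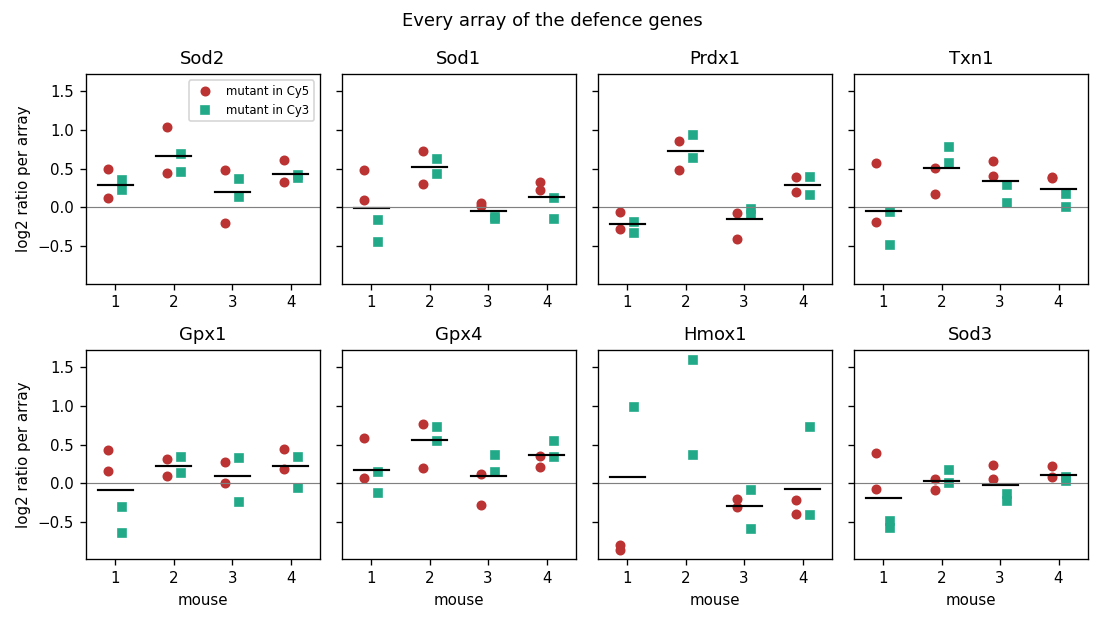
Log2 ratio on every array (y axis) of the 8 measured genes, by mouse (x axis), with circles for arrays with the mutant in Cy5, squares for those with it in Cy3 and a bar at the value of the mouse. The Prdx1 arrays of mice 2 and 4 lie wholly above those of mice 1 and 3. The arrays of mouse 1 split by dye for Hmox1, lower with the mutant in Cy5. They also split for Sod1, Sod3 and Gpx1, higher with it in Cy5.

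Sod1 was the next member by the F-test, with an unadjusted p of 0.00906 and an adjusted p of 0.235. The adjusted p of the other 5 members ran from 0.513 to 0.747. An unadjusted p under 0.05 was found for 2 of 7 members, Prdx1 and Sod1, where 11.2% of rows had one.

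Mouse 2 gave the highest value for 5 of 7 members (Sod1, Sod2, Prdx1, Gpx4 and Txn1) and mouse 4 for the other 2. Mouse 1 was lowest for 4 members and mouse 3 for 3. Over all 15856 rows with 4 mice, mouse 2 was highest in 31% and lowest in 29.7%. Mouse 2 also had the widest spread, with a median absolute ratio of 0.166, against 0.0995 to 0.104 in the other mice. Its 4 arrays had 539 to 618 probes without a value and 55 to 71 spots beyond 10, against 127 to 416 probes and 12 to 35 spots on the other 12 arrays. Their part in the mouse 2 values was not tested. When arrays were scaled to one spread, Prdx1 kept an adjusted p of 0.0404 in the F-test.

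The sequence around the start site of each member was searched for the core of the antioxidant response element, the site bound by the transcription factor NRF2. RefSeq windows on GRCm38.p6, from 250 bases before to 50 after the start, were found for 8 of the 10 members, Gpx3 and Nqo1 included, 11 windows in all. Sod3 and Hmox1 had no window, so they were not searched. The core searched was TGACNNNGC, on both strands; it overlaps the AP-1 motif where its first bases read TGACTCA. Of the 8 members, 2 held it, Prdx1 and Sod1, where 14.0% of 27025 genes and 12.4% of 32851 windows did. The Sod2 window, which held none, is printed beside them. Capitals mark the core, which lies on the reverse strand in both genes.
Prdx1, chr4:116685349-116685648, plus strand: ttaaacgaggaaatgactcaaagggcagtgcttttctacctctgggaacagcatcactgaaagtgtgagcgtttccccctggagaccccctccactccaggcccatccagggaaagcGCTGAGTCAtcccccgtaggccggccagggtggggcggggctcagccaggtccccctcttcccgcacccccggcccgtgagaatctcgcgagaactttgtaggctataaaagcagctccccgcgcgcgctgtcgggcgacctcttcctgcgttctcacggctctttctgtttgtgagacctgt
Sod1, chr16:90220512-90220811, plus strand: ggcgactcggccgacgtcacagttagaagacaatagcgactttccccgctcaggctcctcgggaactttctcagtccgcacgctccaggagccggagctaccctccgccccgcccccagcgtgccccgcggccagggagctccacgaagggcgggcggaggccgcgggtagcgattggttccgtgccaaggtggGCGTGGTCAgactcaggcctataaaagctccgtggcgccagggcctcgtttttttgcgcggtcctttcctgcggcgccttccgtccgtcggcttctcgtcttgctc
Sod2, chr17:13007589-13007888, plus strand: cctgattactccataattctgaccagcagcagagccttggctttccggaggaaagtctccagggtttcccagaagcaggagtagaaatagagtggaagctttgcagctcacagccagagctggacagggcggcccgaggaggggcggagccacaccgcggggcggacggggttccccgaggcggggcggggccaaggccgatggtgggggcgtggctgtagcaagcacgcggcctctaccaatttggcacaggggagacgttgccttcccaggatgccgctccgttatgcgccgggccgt

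In the Prdx1 window the match began 133 bases before the start and reads GCTGAGTCA on the strand shown. In the Sod1 window it began 56 bases before the start and reads GCGTGGTCA. The GC box, GGGCGG on either strand, was found in windows of all 8 members, where 38.2% of genes held it. The Sod1, Sod2 and Txn1 windows each held it 4 times. TATAAA was found in 4 members (15.7% of genes), CCAAT in 4 (41.1%) and GAANNTTC, a heat shock element core, in 1 (9.0%), on either strand. A match is a description of the letters, not a bound site, and no match says only that these letters are not in this window.

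Across the 16 arrays, after the mean of each dye orientation was subtracted, Sod1 and Prdx1 had a Pearson r of 0.81, Sod2 and Gpx4 0.82, Prdx1 and Gpx4 0.80, and Sod2 and Sod3 0.06, the lowest of the 21 pairs. These correlations are descriptions: the arrays share 4 mice and 1 pool. The 3 named genes most like Prdx1, of 8860 with a value on all arrays, were Selenof, a selenoprotein of the endoplasmic reticulum, at r 0.95, the matrix proteoglycan gene Dcn at 0.94 and the phosphate transporter gene Slc17a1 at 0.94. Those most like Sod1 were Smdt1, a subunit of the mitochondrial calcium uniporter, at 0.95, Hint2 at 0.93 and the proton pump subunit Atp6v0e at 0.93.

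For Sod2 the 3 most alike were the surface protein gene Cd47 at r 0.95, Gss, which encodes glutathione synthetase, at 0.91 and the RNA-binding protein gene Hnrnpd at 0.89. Those of Gpx4 were Nol7 at 0.91, Mylpf at 0.91 and the ribosomal protein gene Rps7 at 0.89. For Txn1 they were Rab5if, Dnajc7 and Inha at 0.87, 0.87 and 0.86, for Gpx1 Tbc1d10b, Epcam and Ftl1 at 0.91, 0.86 and 0.84, and for Sod3 Fitm1, Rrp1 and H2ac19 at 0.89, 0.87 and 0.86.

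The wider pathway was described from 8 lists, which held 101 genes outside the set, 67 of them measured. Of these 67 genes, 46 had a mean above 0 and 21 below, with a median of 0.05 and a range of -0.23 to 0.31. None passed limma's threshold, 1 was higher at an unadjusted p under 0.05 and 0 were lower, where 5.83% of all rows were higher and 3.21% lower. The share among the 67 genes was thus below that over all rows. The 1 gene was Sephs2, which makes the selenium donor for selenoproteins such as GPX1 and GPX4. It had 0.14, 0.26, 0.40 and 0.23 in mice 1 to 4, with a mean of 0.26 ± 0.11 (SD, n = 4), and all 4 mice were above 0.

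The other peroxiredoxins, sulfiredoxin and sestrins (5 of 9 measured, 4 with means above 0) had a median of 0.14. The other glutathione peroxidases with catalase (6 of 6 measured, 3 above 0) had a median of 0.00. Cat, the peroxisomal enzyme that breaks down hydrogen peroxide, had -0.01, -0.08, -0.10 and 0.09 in mice 1 to 4. The mice lay on both sides of the pool, with a mean of -0.03 ± 0.08 (SD, n = 4). The thioredoxin and glutaredoxin genes (10 of 12 measured, 7 above 0) had a median of 0.06, and glutathione synthesis and recycling genes (5 of 10, 3 above 0) had 0.04.

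The NRF2 pathway list (16 of 25 measured, 9 above 0 and 7 below) had a median of 0.03, with no member at an unadjusted p under 0.05 in either direction. Copper supply and metallothionein genes (7 of 8 measured, 5 above 0) had a median of 0.03, selenoproteins and their synthesis (13 of 15, 9 above 0) 0.06, and oxidases that make superoxide or peroxide (9 of 21, 7 above 0) 0.04. In the F-test between mice, 1 of 65 genes of these lists was called, where 0.189% of all rows were: Glrx, the cytosolic glutaredoxin. Its ratios were 0.15, 0.91, 0.20 and -0.02 in mice 1 to 4, with an adjusted p of 0.0498 in limma, just under the threshold of 0.05. Glrx shared with Prdx1 a highest value in mouse 2, but not a high value in mouse 4.

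**Figure D4:**
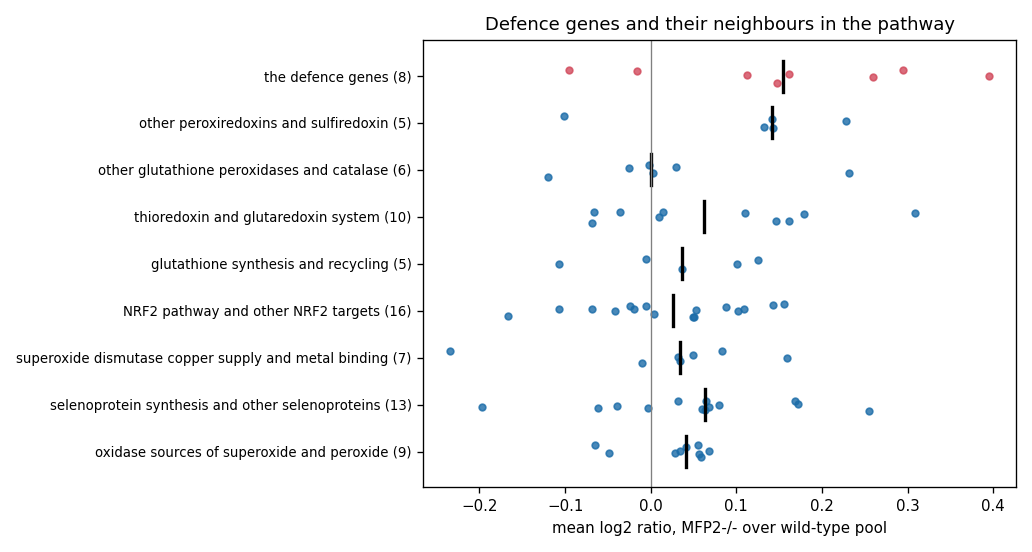
Mean log2 ratio of each gene over the mice (x axis, 1 point a gene) for the set described here (red) and 8 other lists of the pathway (blue), with a bar at each list's median and the number of measured genes in brackets. The set's median is 0.15, against 0.00 to 0.14 in the other lists (without mouse 2, 0.05 against -0.06 to 0.12), and no gene of any list passed the test against the pool.

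Tubule marker lists differed in the mouse that was highest. The 10 measured proximal tubule markers, 8 with means above 0, had medians of -0.04, 0.31, 0.10 and 0.25 in mice 1 to 4. The 5 loop of Henle and distal tubule markers, 4 above 0, had 0.21, 0.69, 0.08 and 0.24. The set's own medians were -0.02, 0.52, 0.04 and 0.23, so mouse 2 was highest in these 3 lists. The 3 collecting duct markers, 2 above 0, had 0.43, -0.01, 0.10 and 0.11, with mouse 1 highest and mouse 2 lowest.

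Macrophage markers (5 measured, 2 above 0) had medians from -0.06 to -0.02 in the mice, and tubular injury markers (6 measured, 3 above 0) from -0.13 to 0.03. At an unadjusted limma p under 0.05, 5 of the 10 measured proximal tubule markers were higher and 2 were lower. Over all rows, 5.83% were higher and 3.21% lower at that limit. The higher markers were Napsa at 0.31, Cubn at 0.24, Fbp1 at 0.31, Miox at 0.66 and Aqp1 at 0.24. The lower ones were Slc34a1 and Slc22a12, each at -0.20. Miox ranged most, with -0.25, 1.25, 0.67 and 0.98 in mice 1 to 4. The other lists gave Slc12a1 at 0.56 and S100g at 0.65 (loop and distal tubule), Aqp2 at 0.46 (collecting duct), Cdh5 at 0.34 and, in 3 mice, Tek at -0.87 (endothelium), Hba-a1 at -0.34 (red cells), C1qb at 0.27 (macrophages) and Fabp4 at 0.33 (adipocytes). None passed after adjustment. The 7 endothelial and smooth muscle markers had a median of 0.04, and the 1 podocyte marker a mean of 0.23. The medians of the collecting duct, T and B cell and adipocyte lists were 0.19, -0.02 and 0.02, and that of the 2 red blood cell genes was -0.21. The part of cell composition in the values of the set was not tested.

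**Figure D5:**
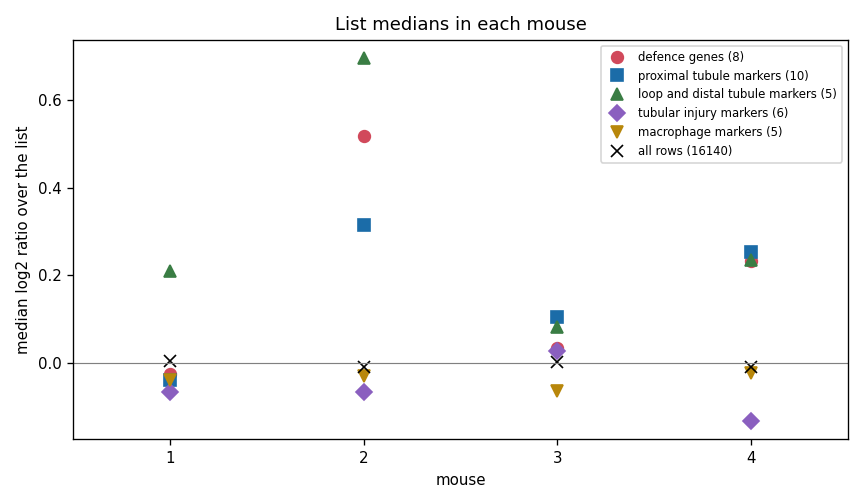
Median log2 ratio over a gene list (y axis) in each of the 4 mice (x axis) for the set described here, 4 marker lists and all rows, with the number of measured genes in brackets. The set, the proximal tubule markers and the loop and distal tubule markers are highest in mouse 2. All rows together stay near 0 because each array was centred on its median.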

How the data were processed

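The deposited values were log ratios per probe, read as log2, 1 column for each of 16 two-channel arrays. The authors' background correction and normalisation were steps not given in the sources used here. A log2 scale was inferred from the largest deposited values. Intensities were not analysed here, so signal over background is unknown and the number of arrays limits the precision. Platform symbols were updated by gene identifier through RefSeq GRCm38.p6 (13994 of 14030 probes with 1 symbol matched; 6320 probes had none and 5 had several). Values beyond 10 in absolute size counted as missing. Arrays were centred on their medians and averaged within orientation, then within mouse. Probes with both orientations in 3 or more mice were kept, and probes of 1 gene were averaged.

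Means over mice were tested against 0 with a two-sided test in limma 3.58.1 (lmFit, eBayes; R 4.3.3), and p-values were adjusted over all rows by Benjamini-Hochberg. An F-test in limma on the 16 arrays, with a dye term, compared the mice. Scripts were tested on simulated data. The members, lists and tests were chosen with earlier results of these data known. The text names every member, Hsd17b4, up to 4 genes of each list with an unadjusted p under 0.05, and the 3 genes most alike; Cat, Glrx, Miox, Aqp1 and Slc22a12 were named after their values were seen. Of 87 markers in 10 lists, 48 were measured. The labels give the first mouse different numbers in titles and sources; its arrays were grouped by source. Nothing states whether the arrays of a mouse came from separate extractions, so they counted as 1 sample. Alternatives covered centring, scaling, missing values, dye orientation, repeats, direction and each mouse left out.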

Additional observations from a re-analysis of the deposited data

How the results depend on the processing

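No member was called against the pool under any alternative except the random-block fit of single arrays, where 1 was. Over all rows, the count of 0 became 3 with the mutant in Cy5 alone, 1 with it in Cy3 alone, 12 with values read as Cy5 over Cy3 and 221 in the random-block fit, and stayed 0 without any 1 mouse. The 30 rows called between mice became 16 after scaling to one median absolute deviation, 51 with probes measured on every array, 48 with every probe on its own, 2 with values read as Cy5 over Cy3, and 4 to 14 without 1 mouse, an alternative added after the data were seen; fewer arrays then enter the test. The 1332 rows called for dye became 2740 without centring, 260 with values read as Cy5 over Cy3, and 46 to 2721 without 1 mouse, the highest without mouse 2; without centring they include Sod1 and Sod3. Sod1, Sod2 and Txn1 stayed above 0 under every alternative, Sod2 with 0.02 when values were read as Cy5 over Cy3. That reading, under which values alike in both orientations cancel, turned Prdx1 to -0.022, Gpx4 to -0.042 and Sod3 to 0.13. Sod3 was 0.11 in the Cy5 orientation, 0.038 on repeat 1, and -0.057 to 0.042 without 1 mouse. Gpx1 was -0.014 in the Cy3 orientation. Hmox1 was 0.45 in that orientation, where mouse 2 also entered, and -0.45 with the median of a mouse's arrays. On repeat 2 Hmox1 was 0.042, and without 1 mouse -0.18 to 0.0024. Prdx1 was -0.026 to 0.29 without 1 mouse. The median setting does not weight the dye orientations equally. The cause of the changes listed here was not tested. Mutant mice could not be paired with control mice because the study has 1 group of mice and 1 pool. Differences between genes within the same mice were not tested.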
